A study of Saccharomyces cerevisiae with 24 samples.

Results

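Control cells of *Saccharomyces cerevisiae* strain BY4741 were compared between 60 min (T60) and 30 min (T30) after their transfer to fresh YEPD, a rich medium of yeast extract, peptone and glucose. The comparison takes every control library labelled with these times, 3 at T60 and 3 at T30, which are 6 of the 24 libraries of the study, and the same replicate number was read as the same culture at both times. BY4741 is a haploid MATa strain. Cells from mid-log YEPD cultures were collected, placed in PBS and held on ice. The study then followed portions irradiated for 30 s with a UV laser and unirradiated control portions. These were sampled at 0, 15, 30 and 60 min in fresh YEPD at 30°, with 3 libraries in each of the 8 groups. The T60 and T30 control cells were never irradiated, and they share the harvest, the wait in PBS on ice and the return to medium. Time since transfer, recovery from cold, cell density and use of the medium thus cannot be told apart in what follows. Libraries were made from poly(A)-selected RNA with a stranded kit, and expression was deposited as RPKM, read numbers scaled to the length of a gene and to the depth of a library.

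Resting yeast cells returned to fresh glucose shut down genes of stress defence and respiration, raise the ribosome-building programme and re-enter the cell cycle at G1. The cells of this study came from mid-log cultures instead. Histone genes are transcribed at the time of DNA replication, and hexose transporter genes are set by the glucose level outside the cell through the sensors Snf3 and Rgt2 and the repressor Rgt1. Purine and methionine synthesis genes are switched by the supply of their end products, through the activators Bas1 and Met4, and most stress defence genes by the activators Msn2 and Msn4.

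The 6 libraries held 3574500 to 5359500 reads each, recovered from the steps between low RPKM values, and 436 to 532 genes per library had no reads and carried the lowest value, an RPKM of 0.021. The defining markers of the strain were as labelled for mating type and for 2 of its auxotrophies. *STE2*, the α-factor receptor of MATa cells, had an RPKM of 409, 523 and 673 at T60 and 678, 675 and 916 at T30, and *LEU2* and *URA3*, deleted in BY4741, were at 0.021 in all 6 libraries. *MATALPHA1*, a regulator of the other mating type, was at 0.021 in 5 libraries and at 0.503 in the T30 library of culture 3, and *MATALPHA2*, of which MATa cells hold a silent copy, had 3.53 to 5.75 at T60 and 2.94 to 6.15 at T30. *HIS3* had an RPKM of 121 to 136 at T60 and 112 to 119 at T30, and *MET17*, listed as deleted in the strain under its older name *MET15*, had 82.6 to 161 at T60 and 237 to 299 at T30. Distances between libraries, by Bray-Curtis on the square root of RPKM, averaged 0.0658 over the 9 pairs of a T60 and a T30 library and 0.0519 within a culture, against 0.0726 among T60 libraries and 0.0507 among T30 libraries. On average T60 and T30 libraries thus lay no farther apart than T60 libraries lay from each other.

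Each culture's T60 and T30 libraries were paired by a block in limma on log2(RPKM + 1), and a call needed a change of at least 2-fold with a p under 0.05 after Benjamini-Hochberg adjustment. The SE and p-values are moderated, drawing on the spread of other genes as well as on that of the 3 cultures. Of 5838 genes tested 116 were called (1.99%), 63 higher (1.08%) and 53 lower (0.908%) at T60, and the median log2 fold change of all genes was -0.08. After rescaling of the libraries by median ratios, which put that median at 0.01, 70 genes were higher and 37 lower, so the share of calls that were higher was 65.4% in place of 54.3%. The T60 and T30 values did not overlap for 57 of the 63 and 46 of the 53 genes, while 6.44% of all genes tested had every T60 library above every T30 library and 8.44% had every T60 library below. Without the culture block 34 genes were higher and 30 lower, all of them among the 116, and 55 of the 116 were called in each of the 3 fits that left out 1 culture. At any fold 3.67% of all genes passed the adjusted test as higher and 4.25% as lower. Counts of list members at an unadjusted p under 0.05 stand below without a share over all genes, which was not counted.

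**Figure D1:**
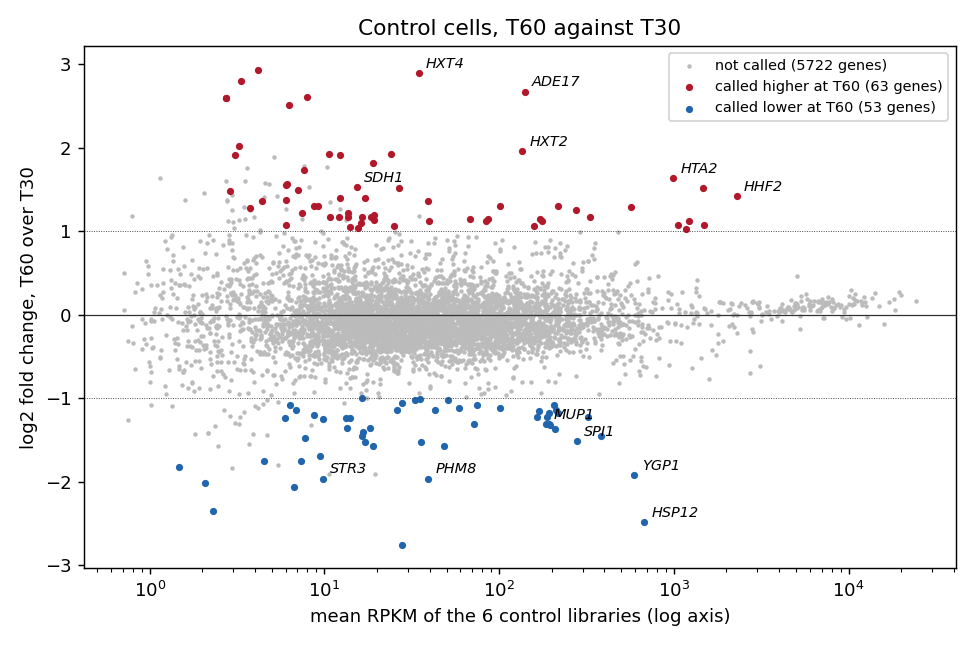
Log2 fold change at T60 over T30 against the mean RPKM of the 6 control libraries on a log axis, 1 point for each of 5838 genes, with the 63 genes called higher and the 53 called lower in colour and dotted lines at a 2-fold change. *HXT4* at 2.90 and *HSP12* at -2.48 lie near the ends of the range.

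Some genes of glucose uptake and its control rose, while others did not. Of 14 transporter, sensor and regulator genes tested 5 were called higher, 1 of them the regulator gene *MTH1*, beside 1.08% of all genes. *HXT4*, which encodes a hexose transporter, had an RPKM of 49.7, 61.0 and 75.6 at T60 in cultures 1, 2 and 3, against 7.0, 6.96 and 8.13 at T30. All T60 values lay far above all T30 values, and the log2 fold change was 2.90 ± 0.17 (SE, adjusted p = 6.3e-08 by limma). *HXT2*, a transporter of high affinity, had 144, 222 and 286 at T60 against 46.4, 42.2 and 75.7 at T30, a log2 fold change of 1.96 ± 0.14 (adjusted p = 3.08e-07 by limma). *MTH1*, whose product holds Rgt1 on transporter promoters when glucose is absent, had 10.8, 13.1 and 19.3 at T60 against 1.66, 0.997 and 1.84 at T30, a log2 fold change of 2.60 ± 0.29 (adjusted p = 3.3e-05 by limma). The transporter that rose most and a gene for a repressor of transporters were thus both higher at T60, without overlap. *HXT7* was called at 1.30 ± 0.13 (adjusted p = 1.35e-05 by limma) and its near-identical neighbour *HXT6* at 1.57 ± 0.32 (adjusted p = 0.00587 by limma), and the reads of this pair cannot be placed with certainty. Both lost their call without the culture block (adjusted p = 0.0618 and 0.253).

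Of the 14 transporter, sensor and regulator genes tested these 5 were called higher and none lower, with a median log2 fold change of 0.54 beside -0.08 over all genes. *HXT3*, a low-affinity transporter, and *MIG2*, a glucose repressor, passed the test below 2-fold at 0.86 and 0.54. *HXT1*, the transporter used at high glucose, did not pass at -0.32 (adjusted p = 0.105), with differences of -0.59, -0.21 and -0.17 in cultures 1, 2 and 3, nor did the sensor genes *SNF3* at 0.29 (adjusted p = 0.654) and *RGT2* at -0.37 (adjusted p = 0.326). *STD1*, *MIG1*, *MIG3* and *HXT5* had log2 fold changes of -0.20, 0.54, 0.22 and -0.36, and none passed. *HXT5*, like *HXT1*, was below 0 in each culture, at -0.23, -0.20 and -0.65. The hexokinase genes *HXK1* and *HXK2* were higher as well. *HXK1*, a hexokinase used away from high glucose, had 25, 30.7 and 58.9 at T60 against 4.25, 8.27 and 17.5 at T30, a log2 fold change of 1.93 ± 0.19 (adjusted p = 7.95e-06 by limma). *HXK2*, the main hexokinase on glucose, had 550, 605 and 764 at T60 against 325, 281 and 352 at T30, which passed just under 2-fold at 0.99 ± 0.11 (adjusted p = 2.85e-05 by limma).

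**Figure D2:**
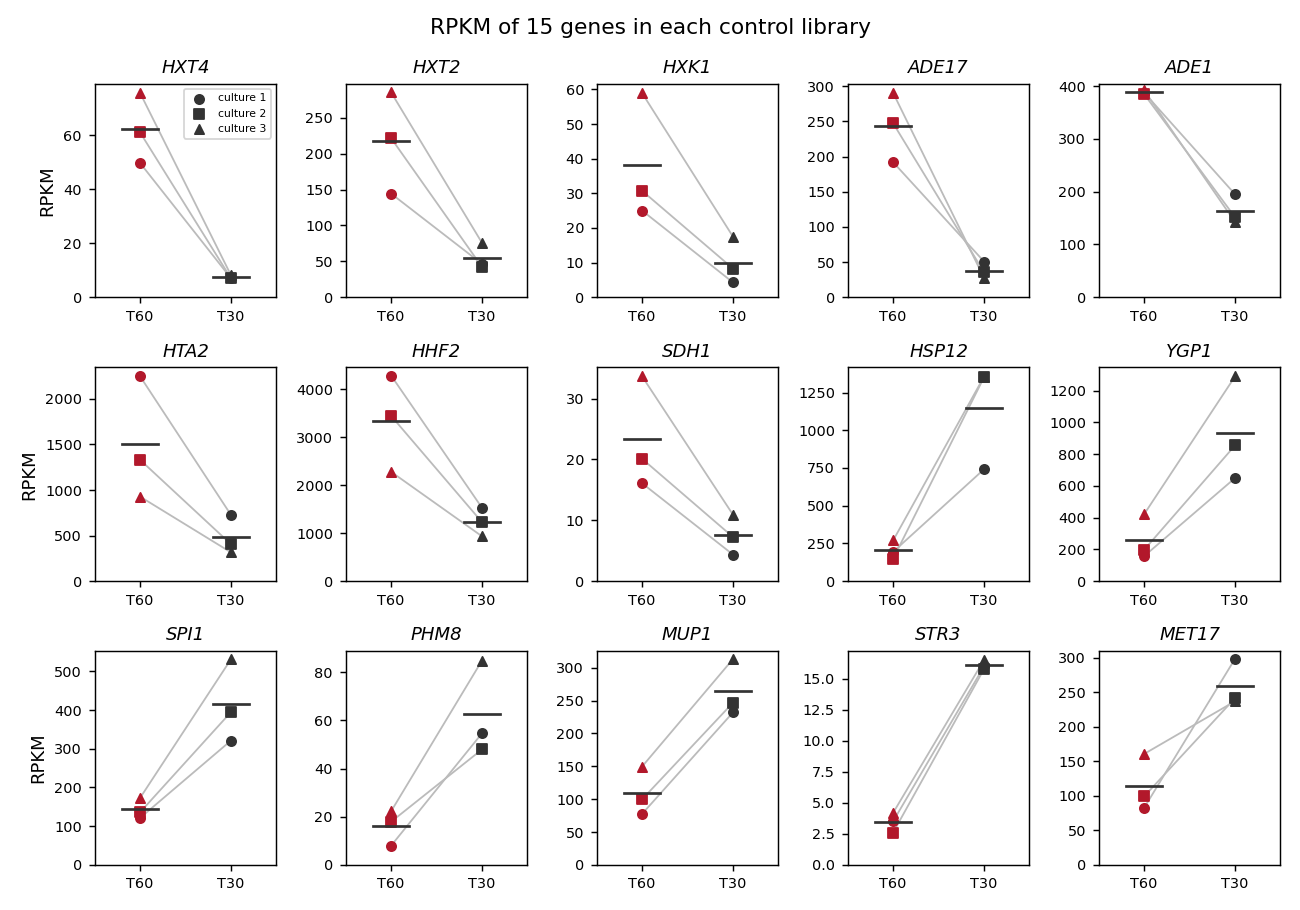
RPKM of 15 genes in each control library, T60 on the left and T30 on the right of each panel, with a marker shape and a joining line for each culture and a bar at the mean of 3. No T60 value of these genes overlaps a T30 value, with *HXT4* at 49.7 to 75.6 against 6.96 to 8.13 and *STR3* at 2.60 to 4.19 against 15.8 to 16.5.

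Purine synthesis rose at T60. *ADE17* encodes the enzyme that makes IMP in the last steps of the pathway, *ADE1* an earlier step, and *SHM2* the cytosolic serine hydroxymethyltransferase that supplies one-carbon units. The 300 bases before each of these genes are shown because the letters TGACTC, which Bas1 reads, occur there. They are from RefSeq assembly R64, 5′ to 3′ on the strand of the gene, with TGACTC or its complement in capitals.
ADE17: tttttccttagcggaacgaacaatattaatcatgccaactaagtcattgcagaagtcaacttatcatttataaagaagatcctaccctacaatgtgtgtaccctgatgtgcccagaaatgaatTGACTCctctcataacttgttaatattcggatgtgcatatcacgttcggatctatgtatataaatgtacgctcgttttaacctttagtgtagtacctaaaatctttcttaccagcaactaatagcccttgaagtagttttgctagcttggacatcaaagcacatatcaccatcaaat
ADE1: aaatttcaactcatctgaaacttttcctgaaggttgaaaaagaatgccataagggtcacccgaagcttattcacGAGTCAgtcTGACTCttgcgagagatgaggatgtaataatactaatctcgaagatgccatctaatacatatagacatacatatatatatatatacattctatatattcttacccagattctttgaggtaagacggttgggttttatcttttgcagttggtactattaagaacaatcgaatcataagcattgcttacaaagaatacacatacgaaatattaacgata
SHM2: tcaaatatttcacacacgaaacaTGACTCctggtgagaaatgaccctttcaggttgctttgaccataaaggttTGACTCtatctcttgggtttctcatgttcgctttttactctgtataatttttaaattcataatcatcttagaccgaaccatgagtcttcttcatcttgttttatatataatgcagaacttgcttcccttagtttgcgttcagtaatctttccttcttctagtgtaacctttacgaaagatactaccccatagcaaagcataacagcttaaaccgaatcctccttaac
These lie at chrXIII:509281-509580 (minus strand), chrI:169075-169374 (plus strand) and chrXII:259402-259701 (minus strand). TGACTC on either strand was found before 14 of 21 purine genes with a promoter read (66.7%), beside 7.77% of 6001 promoters of the same length and 12.8% of the 47 promoters read for genes called higher. A match is only these letters, which the activator Gcn4 also reads.

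*ADE17* had an RPKM of 192, 247 and 290 at T60 against 50.7, 35.4 and 27.5 at T30, a log2 fold change of 2.67 ± 0.20 (adjusted p = 3.08e-07 by limma). *SHM2* had 249, 292 and 390 at T60 against 117, 124 and 128 at T30, a log2 fold change of 1.31 ± 0.12 (adjusted p = 5.66e-06 by limma). *ADE1* had 388, 385 and 392 at T60 against 195, 152 and 142 at T30, a log2 fold change of 1.26 ± 0.12 (adjusted p = 5.66e-06 by limma). The 3 cultures thus met at nearly the same *ADE1* level at T60, above all T30 values. *ADE2*, for the enzyme whose loss turns colonies red, was called at 1.12 ± 0.16 (adjusted p = 0.00035 by limma). It did not reach 2-fold without culture 3, at 0.87, and lost its call without a variance trend (adjusted p = 0.0794 by limma).

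Of 22 purine genes 4 were called higher and 15 passed the test as higher at any fold, beside 3.67% of all genes, with a median log2 fold change of 0.76. *ADE13*, *MTD1*, *GCV3*, *ADE12*, *ADE5,7* and *ADE8* passed with log2 fold changes of 0.99, 0.94, 0.86, 0.81, 0.78 and 0.74. *GCV1* and *GCV2*, of the glycine cleavage complex, passed at 0.82 and 0.98, and *ADE6*, *ADE3* and *ADE4* at 0.50, 0.45 and 0.45. The branch from IMP to GMP did not pass, with log2 fold changes of -0.15 for *IMD2*, -0.12 for *IMD3*, -0.25 for *IMD4* and -0.28 for *GUA1*. *ADE16*, the paralog of *ADE17*, had -0.28 (adjusted p = 0.18), and *BAS1* itself -0.33 (adjusted p = 0.251). *AAH1*, the adenine deaminase that recycles adenine, passed as lower, with 349, 359 and 374 at T60 against 524, 561 and 529 at T30 and a log2 fold change of -0.58 ± 0.10 (adjusted p = 0.00195 by limma). Without the culture block 7 of the 22 genes passed as higher.

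Respiration genes were higher as a group, by less than 2-fold for most members. *SDH1*, the flavoprotein subunit of succinate dehydrogenase, had 16.1, 20.1 and 33.7 at T60 against 4.34, 7.23 and 10.9 at T30, a log2 fold change of 1.53 ± 0.20 (adjusted p = 0.00016 by limma, and 0.0591 without the culture block). *CYC1*, for cytochrome c, had 280, 245 and 199 at T60 against 87.4, 119 and 125 at T30, a log2 fold change of 1.12 ± 0.15 (adjusted p = 0.000211 by limma), and it did not reach 2-fold without culture 1, at 0.85. These were the 2 genes called among 44 of oxidative phosphorylation, beside 1.08% of all genes called higher. Of the 44, 32 passed as higher at any fold and 1 as lower, beside 3.67% and 4.25% of all genes, with a median of 0.51. *QCR10* and *QCR2*, of the cytochrome bc1 complex, passed at 0.87 and 0.86, and *ATP16* and *ATP15*, of the ATP synthase, at 0.72 and 0.61. The count of 32 fell to 14 in a fit of all 12 control libraries, to 10 without culture 2 and to 2 without the culture block.

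*MDH1*, the mitochondrial malate dehydrogenase, had 80.0, 83.3 and 120 at T60 against 42.6, 38.6 and 43.0 at T30, a log2 fold change of 1.15 ± 0.14 (adjusted p = 9.61e-05 by limma), and it stood at 0.99 without culture 3. With *SDH1* it made up the calls among 17 genes of the TCA cycle, beside 1.08% of all genes called higher. The median of these 17 was 0.29 and the range -0.56 to 1.53, and *SDH2* and *SDH3* passed at 0.66 and 0.55. *CIT2*, the peroxisomal citrate synthase, went the other way, with 21.7, 24.8 and 33.3 at T60 against 50.1, 60.3 and 67.5 at T30 and a log2 fold change of -1.14 ± 0.15 (adjusted p = 0.000126 by limma, and 0.0651 in a fit of all 12 control libraries). *RGI1*, a gene of respiratory growth, had 24.1, 20.6 and 14.9 at T60 against 2.77, 6.87 and 4.37 at T30, a log2 fold change of 1.92 ± 0.27 (adjusted p = 0.000224 by limma).

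Histone genes rose together. *HTA2*, for histone H2A, had 2249, 1332 and 927 at T60 against 726, 404 and 315 at T30, a log2 fold change of 1.63 ± 0.10 (adjusted p = 6.3e-08 by limma). *HHF1* and *HHF2*, for histone H4, had log2 fold changes of 1.52 ± 0.11 and 1.42 ± 0.10 (both adjusted p = 2.09e-07 by limma). The level of *HTA2* varied more than 2-fold among cultures, and within each culture T60 stood above T30. All 10 histone genes tested passed as higher and 9 were called, beside 1.08% of all genes, with a median of 1.14 and medians of 1.06, 1.30 and 1.19 in cultures 1, 2 and 3. The others called were *HTB2* at 1.29, *HHO1*, the linker histone, at 1.15, *HHT2* at 1.12, *HTB1* at 1.08, *HHT1* at 1.07 and *HTA1* at 1.02, and *HHT1* lost its call without the culture block (adjusted p = 0.106). *HTZ1*, the H2A variant made outside replication, was below 2-fold at 0.44 ± 0.13 (adjusted p = 0.0422 by limma). Reads of the paired histone genes, which encode the same or nearly the same protein, may be shared between copies.

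Genes of the G1/S transition and of replication were higher with the histones, at smaller size. *GIC1*, a Cdc42 effector of bud emergence, and *NRM1*, a repressor that closes the G1/S wave, were called at 1.17 ± 0.19 (adjusted p = 0.0011 by limma) and 1.06 ± 0.17 (adjusted p = 0.000798 by limma), *NRM1* reaching 0.98 without culture 1. These were 2 of 25 G1/S genes, beside 1.08% of all genes called higher. Of the 25, 10 passed as higher, beside 3.67% of all genes, and 1, *PCL2*, as lower, with a median of 0.60 and a range of -0.65 to 1.17. *PCL1* and *CLN1*, both G1 cyclins, passed at 0.90 and 0.89. The count of 10 was 3 without the culture block, 3 without culture 2 and 16 after rescaling by median ratios, and *PCL2* did not pass without the block, after rescaling or in the fit of all 12 control libraries. None of 27 replication genes was called by limma, with a median of 0.54. As higher at any fold 10 passed, beside 3.67% of all genes, and 19 were higher at an unadjusted p under 0.05. The 10 became 2 without the culture block, 4 without culture 2 and 6 in the fit of all 12 control libraries. *POL30*, for the sliding clamp PCNA, had 235, 253 and 269 at T60 against 161, 126 and 122 at T30, a log2 fold change of 0.89 ± 0.13 (adjusted p = 0.00034 by limma). *RNR1*, the large subunit of ribonucleotide reductase, passed at 0.81. The letters ACGCGT, read by the G1/S factor MBF, were found before 77.8% of the replication genes and 3.48% of all promoters. They were found before 8.0% of the G1/S genes and 8.51% of the promoters read for genes called higher. In culture 1 the replication genes had a median difference of 0.07, against 0.69 and 0.73 in cultures 2 and 3, and without culture 1 4 replication genes were called. The G1/S genes had medians of 0.21, 0.67 and 0.84 in cultures 1, 2 and 3.

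Genes of S/G2 lay slightly above 0 and those of G2/M and M/G1 below. Of 21 S/G2 genes limma called 0, and 1 passed as higher at any fold, beside 3.67% of all genes. At an unadjusted p under 0.05, 8 of the genes were higher, and the 21 genes had a median of 0.31, with 16 above 0. Their medians were -0.04, 0.44 and 0.45 in cultures 1, 2 and 3, with 10 of 21 above 0 in culture 1. Of 20 G2/M genes 1 was called lower, *TPO3*, a polyamine exporter, with 28.4, 35.2 and 46.4 at T60 against 67.8, 73.4 and 101 at T30 and a log2 fold change of -1.12 ± 0.14 (adjusted p = 7.4e-05 by limma). *KIN3* and *HOF1*, a mitotic kinase and a cytokinesis protein, passed at -0.93 and -0.88, and the list had a median of -0.31 and a range of -1.12 to 0.01. *CLB2*, the main mitotic cyclin, did not pass at -0.44 (adjusted p = 0.138). Of 24 M/G1 genes 8 passed as lower at any fold, beside 4.25% of all genes, with a median of -0.31, among them *DSE1*, a daughter-cell wall gene, at -0.80 ± 0.13 (adjusted p = 0.00104 by limma). Of 25 mating genes 10 passed as lower, with a median of -0.34 and a range of -0.94 to 0.20. *BAR1*, the protease that degrades α-factor, had 78.5, 115 and 167 at T60 against 185, 198 and 297 at T30, a log2 fold change of -0.94 ± 0.12 (adjusted p = 0.000158 by limma), and *AGA1*, of the agglutinin, passed at -0.89. Without the culture block limma passed 0 M/G1 and 0 mating genes, with 5 and 10 lower at an unadjusted p under 0.05. In the fit of all 12 control libraries 1 M/G1 gene and 2 mating genes passed, and 2 of each without culture 2.

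**Figure D3:**
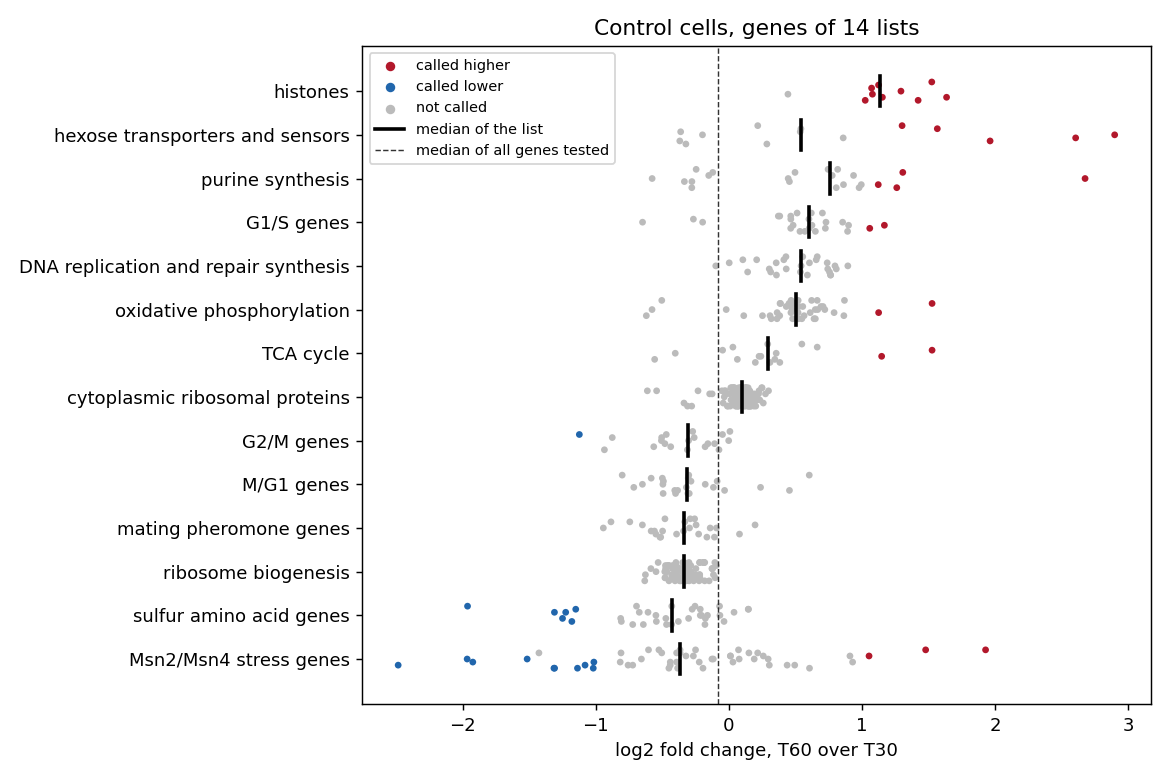
Log2 fold change at T60 over T30 of each tested gene in 14 lists, with called genes in colour, a thick bar at the median of a list and a dashed line at the median of all genes, -0.08. The histone median is 1.14 and that of the Msn2/Msn4 genes -0.37.

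Part of the stress defence genes fell and a few rose. *HSP12* encodes a small membrane-protecting protein and *SPI1* a wall protein, both known targets of Msn2 and Msn4. The 300 bases before each gene are shown for the stress element AGGGG, which these factors read, with AGGGG or its complement in capitals (RefSeq R64, 5′ to 3′ on the strand of the gene).
HSP12: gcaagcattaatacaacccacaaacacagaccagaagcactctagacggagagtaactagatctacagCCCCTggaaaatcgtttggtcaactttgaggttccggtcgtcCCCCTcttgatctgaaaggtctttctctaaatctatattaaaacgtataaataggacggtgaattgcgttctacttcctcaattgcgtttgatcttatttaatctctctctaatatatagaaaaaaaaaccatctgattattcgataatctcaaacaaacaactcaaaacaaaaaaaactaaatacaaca
SPI1: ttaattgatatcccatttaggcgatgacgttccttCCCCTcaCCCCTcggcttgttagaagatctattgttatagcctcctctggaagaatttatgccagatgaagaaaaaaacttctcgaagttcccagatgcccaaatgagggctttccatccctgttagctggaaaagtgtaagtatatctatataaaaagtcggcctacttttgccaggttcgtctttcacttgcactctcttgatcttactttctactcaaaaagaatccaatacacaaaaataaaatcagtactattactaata
These are chrVI:106956-107255 and chrV:468070-468369, both on the plus strand. AGGGG on either strand was found before 42 of 53 genes of the Msn2/Msn4 list (79.2%) and before 23 of the 45 promoters read for genes called lower (51.1%), beside 22.2% of all promoters and 29.8% for genes called higher.

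*HSP12* had an RPKM of 193, 148 and 269 at T60 against 741, 1352 and 1356 at T30, a log2 fold change of -2.48 ± 0.17 (adjusted p = 2.09e-07 by limma). *SPI1* had 121, 136 and 173 at T60 against 321, 395 and 531 at T30, a log2 fold change of -1.52 ± 0.11 (adjusted p = 3.08e-07 by limma). *YGP1*, a secreted glycoprotein made on nutrient limitation, had 157, 197 and 421 at T60 against 649, 855 and 1290 at T30, a log2 fold change of -1.92 ± 0.12 (adjusted p = 6.3e-08 by limma). In each of these genes the highest T60 value stayed under the lowest T30 value. *PHM8*, a nucleotidase, had 7.95, 17.9 and 22.2 at T60 against 54.7, 48.0 and 84.9 at T30, a log2 fold change of -1.97 ± 0.20 (adjusted p = 1.25e-05 by limma). *GPP2*, a glycerol-3-phosphatase of glycerol synthesis, fell by 1.31 on the log2 scale (SE 0.12, adjusted p = 4.1e-06 by limma).

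Of 53 genes of the list 10 were called lower and 3 higher, beside 0.908% and 1.08% of all genes, with a median of -0.37. The other genes called lower, *DDR2*, *DDR48*, *MSC1*, *HSP26* and *SOL4*, were named after their values were seen, with log2 fold changes between -1.31 and -1.01. Those called higher were *HXK1*, *TMA10*, a ribosome-associated protein, at 1.05, and *GSY1*, a glycogen synthase, at 1.48, and *TMA10* was named after its values were seen. *TMA10* lost its call without the culture block (adjusted p = 0.116 by limma), in the fit of all 12 control libraries (adjusted p = 0.109) and without culture 1 (adjusted p = 0.0635). *GSY1* rests on few reads, with 2.41, 4.92 and 6.56 at T60 against 0.021, 1.31 and 2.0 at T30, and was not called without culture 1 (adjusted p = 0.0966) or culture 2 (adjusted p = 0.134). After rescaling by median ratios 6 genes of the list were called lower in place of 10, without the culture block 5. The 3 called higher became 1 without the culture block, 1 without culture 1, 2 without culture 2 and 4 without culture 3. Chaperones of the heat-shock response held no call by limma among 29 genes, with a median of -0.20. As lower at any fold 6 passed, beside 4.25% of all genes, and 12 were lower at an unadjusted p under 0.05. The 6 became 0 without the culture block (3 at an unadjusted p under 0.05), 1 without culture 2, 2 in the fit of all 12 control libraries and 3 after rescaling.

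Genes of sulfur amino acid synthesis fell. *MUP1* encodes the high-affinity methionine permease and *MET17* the enzyme that joins sulfide into homocysteine. As *MET15*, *MET17* is listed as deleted in the strain, and the source of its reads was not tested. The 300 bases before each gene are shown for CACGTG, read by Cbf1, and CTGTGG, read by Met31 and Met32, the DNA-binding partners of Met4, with either or its complement in capitals (RefSeq R64, 5′ to 3′ on the strand of the gene).
MUP1: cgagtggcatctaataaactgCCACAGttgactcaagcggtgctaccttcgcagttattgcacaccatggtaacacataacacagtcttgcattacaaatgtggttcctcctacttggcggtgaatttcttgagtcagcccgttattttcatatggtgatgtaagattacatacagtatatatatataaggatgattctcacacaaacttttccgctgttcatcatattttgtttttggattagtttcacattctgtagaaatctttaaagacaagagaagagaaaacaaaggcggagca
MET17: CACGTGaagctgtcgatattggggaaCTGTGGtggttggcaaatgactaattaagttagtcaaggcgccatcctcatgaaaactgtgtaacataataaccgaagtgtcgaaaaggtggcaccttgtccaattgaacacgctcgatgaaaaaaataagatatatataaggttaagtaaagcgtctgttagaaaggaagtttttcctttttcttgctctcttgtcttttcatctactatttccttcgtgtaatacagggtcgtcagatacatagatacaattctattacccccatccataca
These are chrVII:599117-599416 and chrXII:732242-732541, both on the plus strand. CTGTGG was found before 40% of 35 sulfur genes and CACGTG before 34.3%, beside 6.85% and 3.57% of all promoters.

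*MUP1* had an RPKM of 77.5, 99.7 and 150 at T60 against 232, 247 and 313 at T30, a log2 fold change of -1.31 ± 0.12 (adjusted p = 5.66e-06 by limma). *STR3*, a cystathionine β-lyase on the way from cysteine to methionine, had 3.51, 2.60 and 4.19 at T60 against 16, 15.8 and 16.5 at T30, a log2 fold change of -1.96 ± 0.25 (adjusted p = 9.61e-05 by limma). *SAM2*, an S-adenosylmethionine synthetase, had 89.7, 113 and 158 at T60 against 259, 250 and 292 at T30, a log2 fold change of -1.18 ± 0.13 (adjusted p = 2.85e-05 by limma). No T60 value of these genes reached a T30 value, and culture 3 was highest at both times in each. *MET6*, methionine synthase, fell by 1.15 (SE 0.15, adjusted p = 0.000179 by limma) and *MET17* by 1.23 on the log2 scale (SE 0.17, adjusted p = 0.00031 by limma), and neither reached 2-fold without culture 1, at -0.98 and -0.92.

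Of 35 sulfur genes 6 were called lower and none higher, and 14 passed as lower at any fold. Over all genes 0.908% were called lower and 4.25% passed as lower at any fold. The median of the sulfur genes was -0.43. The sixth call was *MET32*, the DNA-binding partner of Met4, named after its values were seen, at -1.25. *MET32* lost its call without the culture block (adjusted p = 0.0759 by limma) and in the fit of all 12 control libraries (adjusted p = 0.0689). It was also not called without culture 1 (adjusted p = 0.0702) or culture 2 (adjusted p = 0.171). *SAM1*, the paralog of *SAM2* with which it may share reads, passed at -0.72. Without culture 1 the calls were 3 in place of 6, and the 14 became 5 without the culture block, 8 without culture 2 and 8 in the fit of all 12 control libraries.

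Ribosome biogenesis genes lay a little below 0. None of 87 was called by limma, 65 had an unadjusted p under 0.05 as lower and 13 passed as lower at any fold, beside 4.25% of all genes passing. All 87 had a log2 fold change below 0, between -0.63 and -0.09, with a median of -0.34, and after rescaling by median ratios 86 did, with a median of -0.24. *DBP2*, a helicase, had 463, 525 and 650 at T60 against 819, 806 and 894 at T30, a log2 fold change of -0.63 ± 0.11 (adjusted p = 0.00113 by limma). The 13 became 3 after rescaling, 0 without the culture block (24 at an unadjusted p under 0.05), 0 in the fit of all 12 control libraries (30 at an unadjusted p under 0.05), 2 without culture 1, 1 without culture 2 and 18 without culture 3. All 20 genes of RNA polymerases I and III were below 0 as well, 18 after rescaling, with a median of -0.26 and 1 passing. The 137 cytoplasmic ribosomal protein genes had a median of 0.10, with 3 passing as lower, and differed among cultures, with medians of 0.25, 0.07 and -0.03 in cultures 1, 2 and 3.

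The remaining genes with large changes belong to no single pathway. *TIR1*, a wall mannoprotein induced by cold and low oxygen, had 38.8, 44.9 and 36.8 at T60 against 12, 13.6 and 14.6 at T30, a log2 fold change of 1.52 ± 0.17 (adjusted p = 2.9e-05 by limma). *PLB2*, a phospholipase B, was higher at 1.40 ± 0.19 (adjusted p = 0.000198 by limma), and *YKR075C*, of unknown function, at 1.82 ± 0.19 (adjusted p = 1.64e-05 by limma, and 0.126 in the fit of all 12 control libraries). *PHO89*, a sodium-coupled phosphate transporter, was called at 1.37 ± 0.34 (adjusted p = 0.0202 by limma) but not without culture 1 or culture 2.

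*SPO24*, a small gene known from sporulation, had 181, 196 and 231 at T60 against 454, 564 and 666 at T30, a log2 fold change of -1.46 ± 0.11 (adjusted p = 3.08e-07 by limma). *TDA6*, of unknown function, had 21.3, 25.4 and 24.4 at T60 against 72.0, 59.3 and 87.9 at T30, a log2 fold change of -1.57 ± 0.16 (adjusted p = 1.01e-05 by limma). *HSP30*, a membrane protein that restrains the proton pump, fell by 1.52 (SE 0.19, adjusted p = 9.61e-05 by limma). *NCA3*, of a family of wall proteins, fell by 1.33 (SE 0.12, adjusted p = 5.66e-06 by limma), *NQM1*, a transaldolase, by 1.45 (SE 0.21, adjusted p = 0.000277 by limma) and *FMP48*, a putative kinase, by 1.52 on the log2 scale (SE 0.18, adjusted p = 6.04e-05 by limma). *FMP45*, a membrane protein of the cell cortex, was called at -1.47 ± 0.28 (adjusted p = 0.00311 by limma) and lost the call without culture 2. Among small open reading frames *YDR034W-B* was lower at -2.75 ± 0.38 (adjusted p = 0.000202 by limma), *YCL048W-A* at -2.06 ± 0.44 (adjusted p = 0.00796 by limma) and *YER053C-A* at -1.69 ± 0.28 (adjusted p = 0.0011 by limma). The call of *YCL048W-A* was lost after rescaling (adjusted p = 0.0687) and without the culture block (adjusted p = 0.0687), and its differences were -0.27, -3.08 and -2.83 in cultures 1, 2 and 3. The differences of *YDR034W-B* were -1.26, -4.41 and -2.59 and those of *YER053C-A* -0.95, -1.79 and -2.33. Without a variance trend limma called none of *YDR034W-B*, *YCL048W-A* and *YER053C-A*, with an adjusted p of 0.096, 0.156 and 0.0516.

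Among the 116 calls were 15 tRNA genes higher and 2 lower, of 131 tested, and 6 snoRNA genes lower, of 78 tested. Over all genes 1.08% were called higher and 0.908% lower. The tRNA genes differed among cultures, with medians of 0, 0 and 0.90 in cultures 1, 2 and 3. Without the culture block 4 tRNA genes were higher and 1 snoRNA gene lower, without culture 1 8 tRNA genes were higher, and without culture 3 13 were lower. In the fit of all 12 control libraries limma called 2 tRNA genes higher and 0 lower and 0 snoRNA genes lower, with 6 tRNA and 10 snoRNA genes lower at an unadjusted p under 0.05. These RNAs carry no poly(A) tail in their mature form, tRNA genes have near-identical copies, and without both kinds 57 other genes were called higher and 53 lower of 5629. Of the 6 snoRNA genes, the calls rested on 34 to 59 reads over the 6 libraries. The 1 called tRNA gene with a length at hand had 7 reads. The 93 other genes called had a median of 904, with a range of 6 to 18407, so some of these also rest on few reads.

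Gene length moved with the change in 1 culture. For protein-coding genes under 600 bases the median difference was 0.15, 0.01 and -0.0049 in cultures 1, 2 and 3, and for those of 1500 bases or more it was -0.36, -0.08 and 0.04. Histone and many respiration genes are short, and the part of length in their values was not tested. In culture 2 and culture 3, where the length classes differed by less, the histone medians were 1.30 and 1.19 and the oxidative phosphorylation medians 0.53 and 0.40. Several lists that fell were lowest in culture 1. Medians in cultures 1, 2 and 3 were -0.75, -0.44 and -0.31 for sulfur genes and -0.53, -0.29 and -0.22 for ribosome biogenesis genes. They were -0.65, -0.27 and -0.16 for M/G1 genes and -0.69, -0.36 and -0.16 for mating genes. Msn2/Msn4 genes had -0.26, -0.30 and -0.28, and all genes -0.19, -0.06 and 0.02. The part of length in these falls was not tested either.

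The earlier control libraries place these changes in the course since transfer. The later comparison shares the T30 libraries with the step before it, so the values are given side by side without a test. *HXT4* had an RPKM of 105, 290 and 375 at T0, 4.94, 6.29 and 10.4 at T15, 7.0, 6.96 and 8.13 at T30 and 49.7, 61.0 and 75.6 at T60, a return toward a level still under that at T0. *HSP12* had 6363, 5723 and 5575 at T0, 4047, 6805 and 5219 at T15, 741, 1352 and 1356 at T30 and 193, 148 and 269 at T60. *STR3* had 3.06, 4.68 and 2.79 at T0, 1.13, 2.98 and 2.41 at T15, 16, 15.8 and 16.5 at T30 and 3.51, 2.60 and 4.19 at T60. The transporter gene had a low point at T15 and T30, the stress gene was lower at each time from T30 on, and *STR3* was high at T30 alone among the 4 times. *ADE17* had 61.2, 158 and 202 at T0, 4.05, 7.03 and 6.77 at T15, 50.7, 35.4 and 27.5 at T30 and 192, 247 and 290 at T60. The T60 level of *ADE17* was above T0 in each culture.

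**Figure D4:**
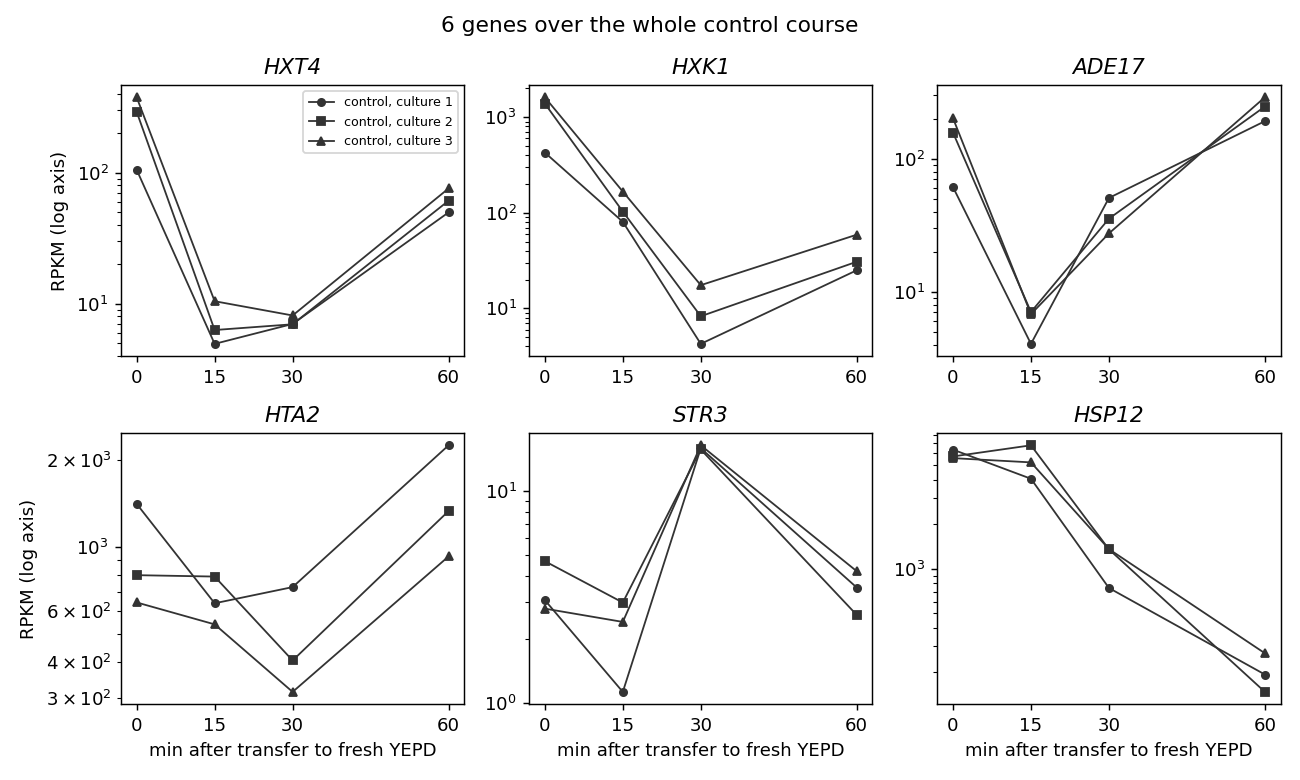
RPKM on a log axis of 6 genes in the control portions of cultures 1, 2 and 3 at 0, 15, 30 and 60 min after transfer to fresh YEPD, 1 line for each culture. *STR3* peaks at 15.8 to 16.5 at T30, and *HSP12* is lowest at T60, at 148 to 269.

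The irradiated portions of the same cultures show how far the change from T30 to T60 was shared. They were divided and handled apart from the control portions, so light and handling cannot be told apart. In an interaction fit of 12 libraries the change of laser cells was higher than that of control cells for 67 of 6031 genes (1.11%) and lower for 249 (4.13%), in all 316 (5.24%), and without the culture block for 9 and 53. Laser cells had 101 genes called higher (1.71% of 5905) and 361 lower (6.11%) over the same interval. Of the 63 genes higher in control cells 13 were also called higher in laser cells, and of the 53 lower 25 were also lower.

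The lists and genes that follow were chosen with the control change known, and that change is a term of the interaction, so their interactions are given as a description. Histone genes had a median change of 0.13 in laser cells and 1.14 in control cells, with the interaction called for 6 of 10 genes. *HHF1* had 1067, 763 and 785 at T60 and 1158, 955 and 784 at T30 in laser cells, against 2706, 2019 and 1786 at T60 and 1110, 625 and 590 at T30 in control cells, an interaction of -1.67 on the log2 scale (adjusted p = 7.98e-05 by limma). Sulfur genes had a median change of -0.01 in laser cells and -0.43 in control cells, with the interaction called for 10 genes, in all of them with the higher change in laser cells. *MET6* had 110, 186 and 204 at T60 and 43.7, 68.5 and 77.5 at T30 in laser cells, against 79.0, 86.8 and 160 at T60 and 223, 229 and 239 at T30 in control cells, an interaction of 2.52 (adjusted p = 4.53e-05 by limma). The Msn2/Msn4 genes had a median of -2.02 with 48 of 53 called lower in laser cells, against -0.37 and 10 in control cells, and the interaction was called for 39. *HXK1* moved in opposite directions, with 10.8, 19.0 and 22.7 at T60 and 45.3, 107 and 112 at T30 in laser cells, an interaction of -4.14 (adjusted p = 5.43e-06 by limma). For *ADE17*, *HXT2* and *YGP1* the interaction was not called, at -0.09 (adjusted p = 0.91), 0.22 (adjusted p = 0.644) and 0.15 (adjusted p = 0.72).

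**Figure D5:**
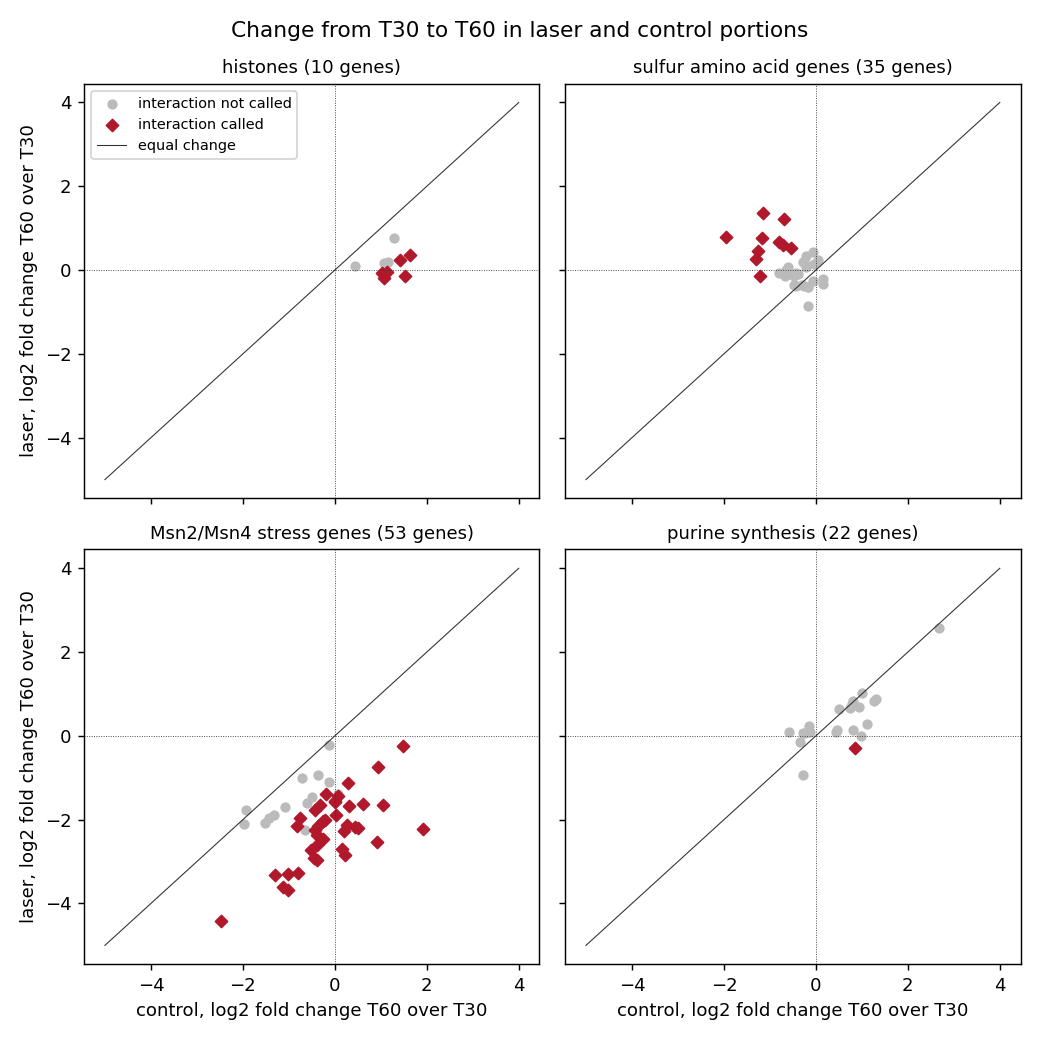
Log2 fold change at T60 over T30 in laser portions (vertical axis) against control portions (horizontal axis) for genes of 4 lists, with diamonds where the interaction was called and a line where both changes are equal. The Msn2/Msn4 genes lie mostly below the line, with medians of -2.02 in laser and -0.37 in control cells.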

How the data were processed

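The authors deposited RPKM values per gene in 1 table for each time, from an alignment to S288C by SeqMan NGen and quantification in ArrayStar. The use of strand in counting is not given in the sources used here. The deposited RPKM values of 6427 genes were joined on gene name, and 6188 names matched RefSeq R64. The authors' own p-values, scores, folds and pooled means were not used. Depth was recovered from RPKM steps, with 91.7% to 94.2% of low values within 0.08 of a whole read (16% by chance). T60 and T30 values come from different tables, and how these were scaled to each other is not given in the sources used here.

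A gene was tested if 3 or more of the 6 libraries reached an RPKM of 1. R 4.3.3 with limma 3.58.1 was run on log2(RPKM + 1), which understates folds of low genes, with a variance trend, culture as a block and adjustment over all genes tested. The study sampled each culture over time. Deviations of same-numbered libraries correlated at 0.367, 0.148 and 0.481, all over 0.1, so the numbers were read as pairs, although T60 replicate 1 correlated with T30 replicate 2 at 0.259, above the pair of replicate 2. The code was tested on simulated data.

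Named genes are the 15 highest and 15 lowest called, non-overlapping genes with a mean RPKM of at least 5, up to 6 per list by p, members of lists of up to 26 genes, and the strain markers, with tRNA and snoRNA genes as counts. Members and lists were chosen with earlier results of these data known. Other scalings, filters, pseudocounts and fits were run as alternatives. Plots used Python 3.11.15, pandas 2.3.3, NumPy 2.4.6 and Matplotlib 3.10.9.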

Additional observations from a re-analysis of the deposited data

Results flagged for a closer look

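Of the 109 genes named above and tested, 30 changed differently from T30 to T60 in laser and control portions. The test was the interaction term of limma (adjusted p under 0.05 and at least 2-fold), and the share over all genes was 5.24%. The named genes were chosen with the control change known, and that change is a term of the interaction, so the list is a description. The values are log2 differences, laser minus control. Among carbon genes the change was lower in laser cells for *HXK1* (-4.14), *RGI1* (-3.05), *MDH1* (-1.88), *GSY1* (-1.72), *HXT5* (-1.69), *HXT4* (-1.34), *QCR10* (-1.23) and *HXT7* (-1.12). Among histone genes it was lower for *HHF1* (-1.67), *HTA2* (-1.28), *HTB1* (-1.27), *HHF2* (-1.18), *HHT2* (-1.16) and *HTA1* (-1.08), and among one-carbon genes for *GCV3* (-1.15). Among stress genes it was lower for *TMA10* (-2.70), *MSC1* (-2.66), *SOL4* (-2.48), *HSP26* (-2.28), *DDR2* (-2.01), *HSP12* (-1.94) and *NQM1* (-1.37). It was higher in laser cells for the sulfur genes *STR3* (2.76), *MET6* (2.52), *SAM2* (1.94), *MET32* (1.71), *MUP1* (1.58), *SAM1* (1.33) and *MET17* (1.09), and for the kinase gene *KIN3* (1.25). Groups of 3 libraries are too small for the search for single outlying libraries.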

How the results depend on the processing

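The 116 calls (63 higher, 53 lower) stayed within 1.5 times under a pseudocount of 0.1, an RPKM minimum of 10, median-ratio rescaling, a fit of all 12 control libraries and, added after seeing the data, without tRNA and snoRNA genes. They were 64 (34 higher, 30 lower) without the replicate block and 71 (38 and 33) with a pseudocount of 5, and 34 genes were lower without a variance trend. With no filter on low values limma called 0 genes (0 higher, 0 lower), while 62 higher and 51 lower passed an unadjusted p under 0.05 at 2-fold, and the cause was not tested. Leaving out each culture with both its libraries gave 108 to 143 calls, 67 to 72 higher and 41 to 73 lower, the highest count of lower genes being without culture 3. The interaction held 316 calls, 62 without the replicate block and 215 to 305 with 1 culture left out. Of the 109 genes named, *IMD2* and *MIG3*, neither of them called, changed sign with 1 culture left out, *IMD2* ranging between -0.27 and 0.026 (positive without culture 1) and *MIG3* between -0.14 and 0.413 (negative without culture 3). Of the 109 genes, 59 were called in the main fit. Without the replicate block 15 of these 59 lost their call, and with no filter all 59 did. Depth limits genes of few reads, whose fold depends on the pseudocount. The SE and p-values of limma are moderated, so the spread of a gene is drawn toward that of genes of similar level. Most of the weight in the main fit came from other genes, with 13.5 prior against 2 residual degrees of freedom. An SE is thus not the spread of 3 cultures alone, as for *ADE17*, whose differences were 1.90, 2.77 and 3.36. With 3 cultures and 1 series the p-values do not reach beyond these cultures.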
